A study of Mus musculus with 12 samples.

Results

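Short repeat-free intervals are stretches of the mouse genome below 1000 bp, from the deposited m6A interval table, that overlap no annotated repeat other than simple and low-complexity repeats. They were taken on all autosomes other than 6, 8 and 11 where the mean signal over 6 libraries was at least 1. The rule gave 14291 intervals of 74299 in all, or 19.2%, and 37.8% of the 37759 intervals that reached the same mean and were tested. Without the bound on signal there were 16067, and all 14291 that passed it were tested. The members were chosen by the mean signal of all 6 libraries, so levels are given as a description, and 966 intervals had a group mean below 1 in at least 1 group (190 in WT, 804 in KO and 112 in del-cIDR). The 5 intervals just above the bound on signal had means of 1.002 to 1.004 and the 5 just below it 0.9964 to 0.9995. The 5 intervals of 998 to 999 bp just inside the length bound had mean signals of 49.6 to 208.8, and the 5 of 1000 to 1001 bp just outside it had 6.82 to 484.8.

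The series examined N6-methyladenosine (m6A) on chromatin-associated RNA of E14TG2a cells, a mouse embryonic stem cell line grown with LIF and the inhibitors PD0325901 and CHIR99021. Its 12 samples cover the genotypes WT, Alkbh5 KO and Alkbh5 del-cIDR, each with 2 replicates and each replicate split into immunoprecipitated RNA and input. The values below come from 6 libraries, 2 per genotype, read as immunoprecipitated because the labels call the tables a normalized m6A matrix, although the column names do not say so. The columns read as del-cIDR are named KI and were assigned by elimination, and both KO columns carry the name KO6, which leaves it possible that they are 1 line. Nothing in the labels says that replicates were separate cultures, and p-values then measure only the spread between these libraries, which may be technical. In values as deposited, the test used (limma) pooled that spread over intervals of like signal. Such a p-value hardly reflects how far the replicates of 1 interval differ. No column was read as input, so m6A, the amount of RNA and the number of gene copies cannot be told apart in any difference below. Reads of an unmodified spike-in outnumbered those of the m6A spike-in in each library, and how far the values follow m6A recovery was not tested.

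m6A is written on RNA in the nucleus, largely while it is being transcribed, by a methyltransferase complex with METTL3 as its catalytic subunit and METTL14 as its partner. ALKBH5 is a nuclear enzyme that removes the mark, and YTHDC1 is a nuclear protein that binds it. In embryonic stem cells the mark on RNA held at chromatin has been studied both on transcripts of genes and on those of transposable elements, and the intervals here overlap no annotated transposable element. They are named by their deposited GRCm39 coordinates, and which genes, exons or introns they lie in was not analysed here.

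The intervals were short and unequal in signal. Signal is the deposited read number of an interval scaled by the reads of the m6A spike-in RNA. The median length was 356 bp, with quartiles of 236 and 527 bp, and 1249 intervals (8.74%) were exactly 200 bp long, the minimum. Together they covered 5.85 Mb. Mean signal over the libraries had a median of 21.0, against 9.33 for all tested intervals, and quartiles of 6.17 and 61.9. Per kb of interval the median signal was 56.4. A small number held much of the signal, as the 143 highest carried 19.1% of it and the 1429 highest 55.1%. Simple or low-complexity repeats lay in 2845 intervals (19.9%). The nearest other repeat was a median of 555 bp away, within 100 bp for 1417 intervals and over 5000 bp away for 191. Reads summed over the 6 libraries had a median of 1009 per interval and a minimum of 40.

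**Figure D1:**
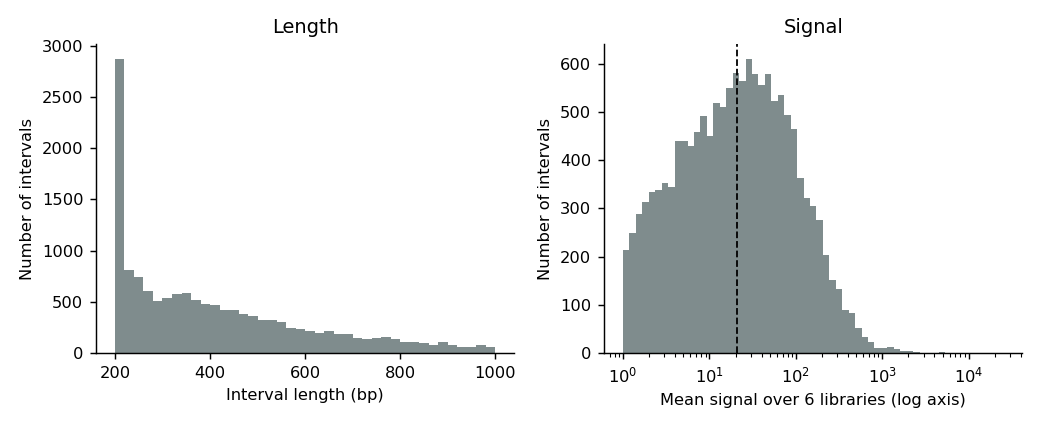
Number of short repeat-free intervals by length in bp (left) and by mean signal over 6 libraries on a log axis (right), with the dashed line at the median signal of 21.0. Lengths pile up at 200 bp and fall off towards 1000 bp, and signal spans from 1.00 to 20867.

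A single interval of 203 bp on chromosome 17 had the highest signal by far and held 2.41% of the total. At chr17:40154057-40154260 the mean signal was 20867, or 102793 per kb, and the interval lies 4 bp from a hAT-Tip100 DNA transposon. Its log2 difference from WT was −0.46 in KO and 0.41 in del-cIDR, and neither passed the test (limma adjusted p = 0.405 and 0.418). The other members of high signal included pairs of neighbours. On chromosome 17, chr17:45881302-45881651 and chr17:45879874-45880081 stood in a run of 5 members, joined where gaps were at most 10 kb, and on chromosome 12, chr12:110660487-110660934 and chr12:110659116-110659358 in a run of 3. The signal of chr12:110660487-110660934 was 5183 and 5560 in the WT libraries, 2860 and 1771 in KO, with 8098 and 8372 in del-cIDR. Every KO library was below every WT library there, and every del-cIDR library above. The fall in KO, −1.25 ± 0.32 (SE) on the log2 scale, passed the test (limma adjusted p = 0.0030), and the difference of del-cIDR, 0.62 ± 0.32 (SE), did not (limma adjusted p = 0.204).

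Library depth was even, and the spike-in factors were not. Interval reads numbered 13234793 to 15145206 per library, of which 6416828 to 7706551 fell in short repeat-free intervals. The m6A spike-in had 814 to 1870 reads, so that 1 read was worth 0.0729 to 0.168 units of signal, most in del-cIDR and least in KO. Members took 49.2% and 49.0% of interval reads in WT, 47.8% and 47.1% in KO, with 50.3% and 50.9% in del-cIDR. The groups did not overlap, and KO differed from WT by −1.64 ± 0.37 percentage points (SE, n = 2 each) and del-cIDR by 1.45 ± 0.33. Taken of the reads on the same autosomes alone, the difference was 0.072 ± 0.55 points in KO, where the libraries overlapped, and 1.12 ± 0.46 in del-cIDR. The lower share in KO was thus measured only with reads of other chromosomes in the total. Shares, totals and medians carry no p-value, because a two-sided exact permutation test of 2 against 2 libraries cannot go below 0.333.

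On the deposited scale the members' total signal was 758582 and 809153 in WT, 693604 and 468087 in KO, with 1220860 and 1238230 in del-cIDR. The groups did not overlap, and the KO libraries differed from each other more than either WT or del-cIDR pair. On the log2 scale KO lay −0.46 ± 0.29 (SE, n = 2 each) from WT and del-cIDR 0.65 ± 0.05 above it. Taken by interval, the members' median log2 difference from WT was −0.44 in KO and 0.60 in del-cIDR. A large part of these shifts was common to all tested intervals, whose median was −0.35 in KO and 0.46 in del-cIDR. Differences are therefore given below both as deposited and with each library centred on its own median over all tested intervals.

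KO against WT asks how loss of Alkbh5 changed these intervals. On the deposited scale 1763 of the 14291 intervals were lower in KO, or 12.3%, where 10% of all tested intervals were lower, and 111 were higher, or 0.777%, against 0.985% of all tested. The called total of 1874 was 13.1% of the members, against 11% of all tested (limma, Benjamini-Hochberg adjusted p under 0.05 over all 37759). With libraries centred, 1361 were lower (9.52%, against 7.28% of all tested) and 361 higher (2.53%, against 4.68%). The centred total of 1722 was 12.05% of the members, against 11.95% of all tested, so the excess in the total was seen only as deposited. The share of higher intervals among those called was thus 5.92% as deposited and 21.0% centred, and it was 33.7% on a scale of ERCC reads and 19.4% on one of reads from repeat loci outside the intervals. Both scales called 1291 intervals lower (9.03%, against 6.96% of all tested), on 16 chromosomes, and 110 higher (0.770%, against 0.972%), on 14. The deposited count of 1874 depended on single libraries, as it became 578 (KO replicate 2), 653 (WT replicate 1), 265 (WT replicate 2), 1204 (del-cIDR replicate 1) and 1198 (del-cIDR replicate 2) when the library in brackets was left out, and rose to 5912 when KO replicate 1 was. The centred count of 1722 was 498 and 492 without KO replicates 1 and 2 and 867 without WT replicate 2.

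**Figure D2:**
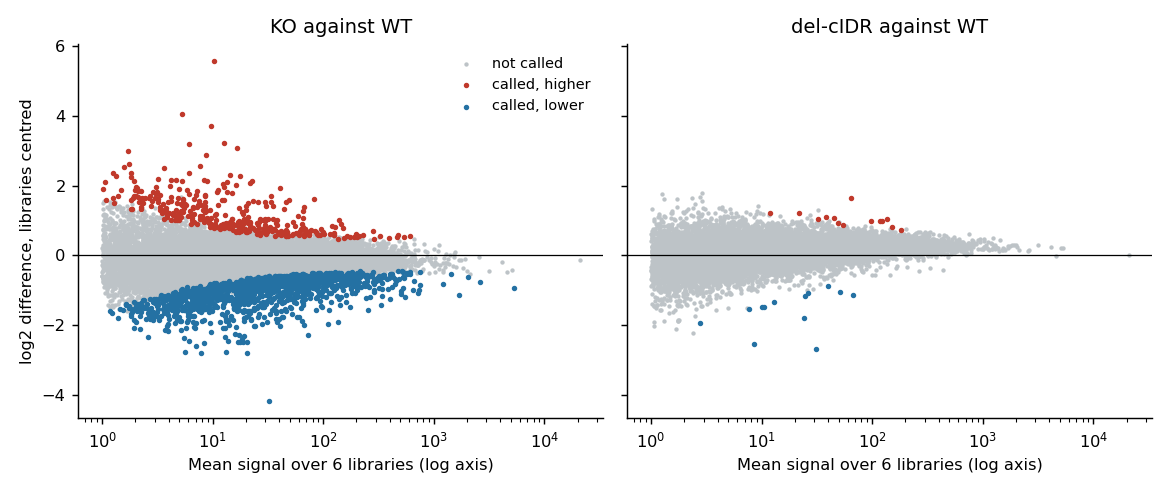
Log2 difference from WT with libraries centred, against mean signal over 6 libraries (log axis), for each of the 14291 short repeat-free intervals in KO (left) and del-cIDR (right), with intervals past a limma adjusted p of 0.05 in colour. KO has 361 intervals called higher and 1361 called lower, and del-cIDR has 14 higher and 13 lower.

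The largest rises in KO were in intervals with few reads in WT. At chr7:40806620-40807237 the signal was 2.21 and 1.48 in WT, 30.1 and 19.3 in KO, with 1.68 and 3.05 in del-cIDR. Only the KO libraries were high there, and the KO mean was 13.4-fold the WT mean (log2 difference 3.41 ± 0.39 SE, limma adjusted p = 1.5e-14). A pair of neighbours in a run on chromosome 1 showed the same order of libraries. At chr1:180720514-180720804 the signal was 2.10 and 5.30 in WT, 39.1 and 21.0 in KO, with 3.69 and 5.30 in del-cIDR. At chr1:180726552-180726832 it was 5.47 and 4.44 in WT, 49.4 and 27.0 in KO, with 8.04 and 5.62 in del-cIDR. In both, each KO library stood above all other libraries, and del-cIDR overlapped WT in the first and lay just above it in the second, with log2 differences from WT of 2.91 ± 0.37 and 2.77 ± 0.36 (SE) in KO (limma adjusted p = 4.8e-12 and 9.5e-12). Centred, these adjusted p were 5.3e-05 and 1.4e-05 (limma), and that of chr7:40806620-40807237 was 2.6e-05. Both KO libraries were likewise above all others at chr5:90009081-90009281, where the log2 difference was 2.89, and at chr9:64855080-64855468, where it was 2.57.

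The largest fall in KO was a near loss of signal. At chr13:25386008-25386409 the signal was 22.7 and 22.1 in WT, 0.396 and 0.657 in KO, with 77.8 and 70.9 in del-cIDR. The 3 groups stood apart, with 374 reads in WT, 13 in KO and 905 in del-cIDR, and the log2 difference of KO from WT was −4.49 ± 0.35 (SE, limma adjusted p = 1.7e-32). With libraries centred the adjusted p was 2.0e-06 (limma). On chromosome 17 all 3 members of a run fell. The first of them by position, chr17:6779107-6779399, had a signal of 18.7 and 22.9 in WT, 2.37 and 2.77 in KO, with 39.2 and 37.8 in del-cIDR. KO was again below WT in every library and del-cIDR above it, though only the fall in KO passed the test (−2.79 ± 0.35 SE, limma adjusted p = 2.3e-12, against 0.88 ± 0.35 SE in del-cIDR, limma adjusted p = 0.131). At chr7:131659624-131660148 the signal was 7.10 and 8.63 in WT, 0.396 and 0.584 in KO, with 8.71 and 8.19 in del-cIDR. Here the del-cIDR and WT libraries overlapped and only KO was low, by −3.08 ± 0.41 (SE, limma adjusted p = 8.9e-11). At chr5:109696344-109696767 the signal was 9.43 and 9.99 in WT, 0.791 and 0.584 in KO, with 14.4 and 11.4 in del-cIDR. KO was the lowest there too, and del-cIDR lay above WT without passing the test (limma adjusted p = 0.522). Centred, the falls in KO at chr17:6779107-6779399 and chr7:131659624-131660148 had adjusted p of 3.9e-05 and 1.7e-04 (limma).

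**Figure D3:**
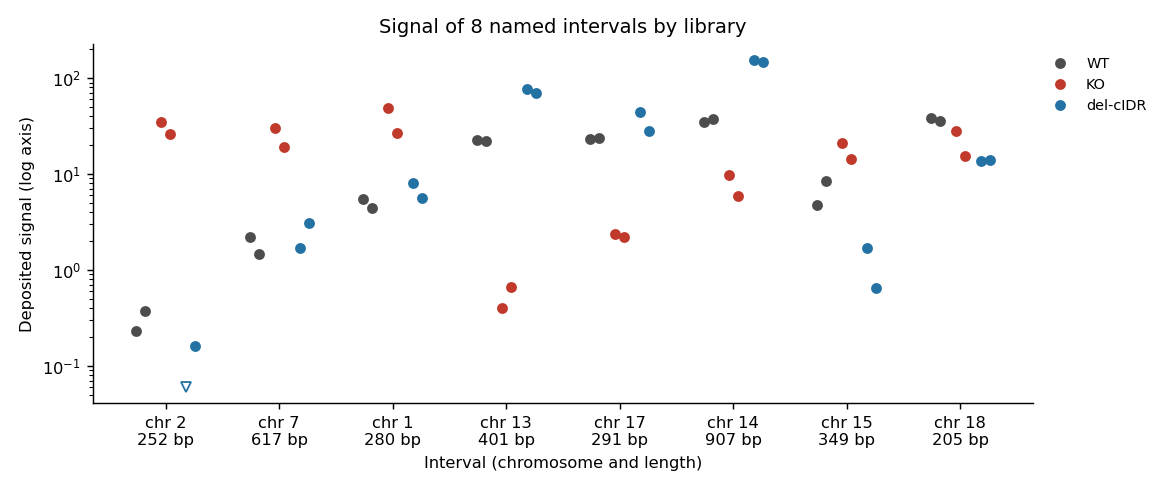
Deposited signal (log axis) of 8 named short repeat-free intervals in each library, with 2 points per genotype, and an open triangle for a library with 0 reads. In the first 3 intervals KO stands highest, in the next 3 it stands lowest and del-cIDR highest, and in the last pair del-cIDR stands lowest. The first, chr2:27656206-27656458, reached the bound on mean signal only through KO, so its difference was in part fixed by the rule.

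The del-cIDR cells against WT ask what the deletion in Alkbh5 changed. On the deposited scale 192 of the 14291 intervals were called, or 1.34%, against 1.13% of all tested (limma adjusted p under 0.05). Of these 188 were higher, or 1.32%, against 1.04% of all tested, and 4 were lower, or 0.0280%, against 0.0874%. With libraries centred, 27 were called (0.189%, against 0.305% of all tested), 14 of them higher (0.0980%, against 0.167% of all tested) and 13 lower (0.0910%, against 0.138%). Higher intervals were 97.9% of those called as deposited, 51.9% centred, 82.5% on the scale of reads in repeats and 15.4% on the ERCC scale, so the balance of directions followed the scale. The count of 192 was 6179 and 6213 without KO replicates 1 and 2, libraries that enter here only through the pooled spread. It was 3 and 24 without WT replicates 1 and 2, and 11 without either del-cIDR library. The centred count of 27 was 12 and 9 without WT replicates 1 and 2, 8 without either KO library and 16 without del-cIDR replicate 2.

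Among the 10 largest rises in del-cIDR, a single interval stood out on both scales. At chr14:32026312-32027219 the signal was 34.8 and 37.6 in WT, 9.79 and 5.84 in KO, with 153.7 and 146.5 in del-cIDR. The order of the 3 groups was that of the chromosome 13 interval, with no overlap. The del-cIDR mean was 4.15-fold the WT mean (2.04 ± 0.33 SE on the log2 scale, limma adjusted p = 1.2e-06, and 7.7e-04 centred), and it was the only one of the 10 largest rises to pass when centred. The other 9 had low counts, with 1 to 94 reads in WT, and their smallest centred adjusted p was 0.0968 (limma). Among them, chr2:179537535-179538049, chr16:34975421-34975676, chr5:81616796-81616998 and chr13:57142632-57142955 reached the bound on mean signal only through del-cIDR. Their rise was thus in part fixed by the rule, and the mean signal of several others also rested mostly on del-cIDR.

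All 4 intervals called lower in del-cIDR can be given. At chr15:102870383-102870732 the signal was 4.77 and 8.51 in WT, 21.3 and 14.2 in KO, with 1.68 and 0.643 in del-cIDR. The del-cIDR libraries lay below WT and the KO libraries above it, and both differences passed the test (−2.13 ± 0.39 and 1.38 ± 0.39 SE, limma adjusted p = 6.4e-05 and 0.0082). At chr7:82420449-82421140 the signal was 24.8 and 51.3 in WT, 50.2 and 40.6 in KO, with 14.9 and 3.05 in del-cIDR. Both del-cIDR libraries were the lowest there, although they differed widely from each other, by −2.29 ± 0.34 on the log2 scale from WT (SE, limma adjusted p = 4.2e-08). Centred, the adjusted p of this interval was 0.0173 (limma). At chr18:50977047-50977252 the signal was 38.8 and 35.6 in WT, 27.8 and 15.4 in KO, with 13.6 and 14.1 in del-cIDR. The del-cIDR libraries were the lowest, by −1.39 ± 0.34 (SE, limma adjusted p = 0.0107), and KO lay between the other groups without passing the test. The fourth, chr5:3350776-3351325, had 37 reads in WT and 4 in del-cIDR and lost its call when centred (limma adjusted p = 0.0793). The calls on chromosomes 15 and 7 were lost without WT replicate 2 or del-cIDR replicate 2, and that on chromosome 18 without any 1 of the WT or del-cIDR libraries.

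Set against each other, the mutants differed in more intervals than either did from WT in these counts. Both contrasts with KO share its libraries. On the deposited scale 9703 intervals were called, or 67.9%, against 48.8% of all tested (limma adjusted p under 0.05). In del-cIDR 9567 (66.9%) were higher than in KO, where 47.3% of all tested intervals were, and 136 (0.952%) were lower, against 1.57%. Centred, 4494 were called (31.4%, against 27.5% of all tested), of which 3823 were higher (26.8%, against 17.6% of all tested) and 671 lower (4.70%, against 9.92%). Higher intervals made up 98.6% of calls as deposited, 85.1% centred, 87.9% on the scale of reads in repeats and 53.4% on the ERCC scale. The deposited count of 9703 was 4566 without del-cIDR replicate 1 and 5393 without del-cIDR replicate 2, and the centred count of 4494 was 2313 without KO replicate 1 and 1912 without KO replicate 2. Among intervals not yet described, chr18:42289727-42290390 had a signal of 1.19 and 1.17 in KO and 28.5 and 28.8 in del-cIDR, with 12.8 and 9.37 in WT. At chr13:52001931-52002470 the signal was 5.84 and 5.47 in KO, 88.7 and 74.2 in del-cIDR and 24.3 and 32.4 in WT. In both the WT libraries lay between the mutants with no overlap, and on chromosome 13 del-cIDR also passed against WT when centred (1.11, limma adjusted p = 0.0351).

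As a body, the intervals lay slightly lower in KO and higher in del-cIDR than all tested intervals, which include chromosomes outside the rule. A median over the same autosomes alone was not taken. Relative to the median of all tested intervals, and to the WT mean, the members' median log2 signal was 0.013 and −0.013 in the WT libraries, −0.052 and −0.12 in KO and 0.081 and 0.16 in del-cIDR. The groups did not overlap, and the differences from WT were −0.088 ± 0.038 in KO and 0.12 ± 0.042 in del-cIDR (SE, n = 2 each). The same signs held on all 16 chromosomes, from −0.12 to −0.031 in KO and from 0.079 to 0.15 in del-cIDR. Libraries did not overlap those of WT on 14 of the 16 in KO and on 15 in del-cIDR. All chromosomes share the same 6 libraries, so their agreement is not repeated evidence. The 1103 repeat-free intervals of 1000 bp or more on these autosomes had like values, −0.082 ± 0.035 and 0.17 ± 0.035. The 14342 intervals that overlap a repeat had 0.037 ± 0.054 in KO, where libraries overlapped WT, and −0.15 ± 0.063 in del-cIDR. Members make up a large share of the tested intervals that set the common median, so these values are not independent of one another.

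**Figure D4:**
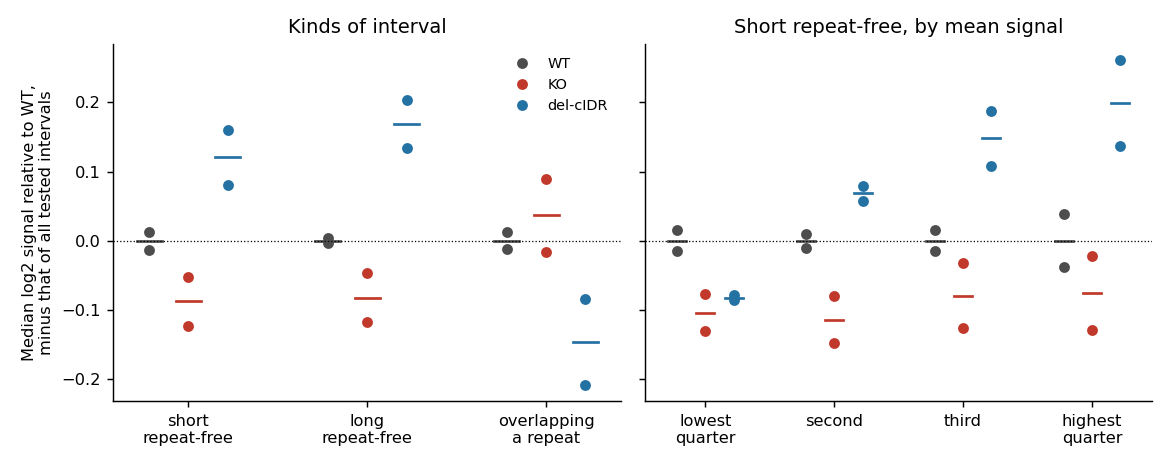
Median log2 signal relative to the WT mean, minus that of all tested intervals, for each library (points) and its group mean (bars), by kind of interval (left) and for short repeat-free intervals by quartile of mean signal (right). In short repeat-free intervals both KO libraries lie below 0 and both del-cIDR libraries above it, and del-cIDR goes from −0.083 in the lowest of them to 0.20 in the highest.

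The relative values differed between intervals of low and high signal. Over 4 classes of equal size, from the lowest to the highest mean signal, del-cIDR lay −0.083 ± 0.016, 0.068 ± 0.014, 0.15 ± 0.043 and 0.20 ± 0.073 (SE) from WT in relative median log2 signal. KO lay −0.10 ± 0.031, −0.11 ± 0.035, −0.079 ± 0.050 and −0.076 ± 0.066. The mean that sorts the classes includes the del-cIDR libraries, which have the highest signal on this scale, and counts in the lowest class are small, so the order of classes is a description. On other scales and with a smaller pseudocount the lowest class of del-cIDR ranged from −0.056 to −0.024 and the highest from 0.16 to 0.18, while the lowest class of KO ranged from −0.18 to −0.15 and the highest from −0.056 to −0.046. The spread of KO over the classes was thus wider on those settings than on the deposited scale. Replicates also differed more at low signal, with a median absolute log2 difference of 0.37 between the WT libraries in the lowest class and 0.21 in the highest. Since members have more signal than tested intervals in general, shares of calls were also taken within the bounds of these classes. Centred, KO was called against WT in 8.06%, 14.5%, 13.5% and 12.1% of members from the lowest class to the highest, against 5.94%, 17.1%, 16.6% and 14.2% of all tested intervals of like signal. For del-cIDR against KO the shares were 18.9%, 30.6%, 34.7% and 41.6% of members, against 16.2%, 32.3%, 35.1% and 40.0% of all tested. In KO against WT the members' centred share was thus above that of all tested in the lowest class and below it in the others, and for both mutants against each other it was above it in the lowest and highest classes. As deposited, it was above in the lowest 2 classes for KO against WT. For del-cIDR against KO it was then above in all 4, from 43.7% against 26.7% to 87.2% against 79.7%. Members were 3573 of the 6475 tested intervals in the highest class, so the shares compared there overlap. By length, the 1249 intervals of exactly 200 bp had a del-cIDR value of 0.022 ± 0.028, where libraries overlapped WT, and the 4000 of 500 bp or more had 0.17 ± 0.046. Intervals with a simple or low-complexity repeat lay at −0.15 ± 0.050 in KO and those without one at −0.073 ± 0.046, and both had 0.12 in del-cIDR. The 191 intervals with the nearest other repeat over 5000 bp away lay at −0.17 ± 0.018 in KO and 0.20 ± 0.0054 in del-cIDR.

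Many of the intervals were close neighbours and did not move independently. Joined where the gap was at most 10 kb, they formed 9561 runs, of which 2897 held 2 or more, with 7627 intervals (53.4%) and up to 29 in a run. Across the 4730 pairs of neighbours in a run, the centred log2 difference of one and the next correlated at r = 0.68 for KO and 0.41 for del-cIDR, each against WT. Across 9545 pairs with a larger gap the r was 0.25 and 0.13. All pairs share the same libraries, so these are descriptions. With libraries centred, of 429 such pairs in a run whose first interval was called lower in KO, the next was also called lower in 225 (52.4%), and 0 pairs of the 4730 were called in opposite directions. With the larger gap this was so in 197 of 932 (21.1%), with 25 opposite pairs, and 9.52% of all members were called lower. Of 1048 runs with 3 or more intervals, 32 had all of them called lower in KO, 7 all called higher, and 0 had calls in both directions.

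The run with the clearest shift among the 5 largest was on chromosome 2. Its 13 intervals lie within chr2:76555291-76586317, over 31.0 kb. Their summed signal was 404.7 and 440.4 in WT, 190.4 and 144.8 in KO, with 1042.4 and 1009.5 in del-cIDR. The 3 genotypes stood apart, KO lowest and del-cIDR highest. All 13 were called lower in KO on both scales, by −0.73 to −1.41 centred, and in del-cIDR 12 were called higher as deposited and 4 centred, with centred differences of 0.68 to 1.08 (limma adjusted p under 0.05). The highest of them, chr2:76580220-76581206, had 63.5 and 74.4 in WT, 31.2 and 26.8 in KO, with 162.6 and 149.1 in del-cIDR.

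The largest run, with 29 intervals at chr18:37840474-37897260, went the other way in KO. Its summed signal was 516.3 and 607.6 in WT, 811.0 and 585.8 in KO, with 675.0 and 588.5 in del-cIDR, so that as deposited the libraries of the groups overlapped. Centred, 25 of the 29 lay above WT in KO and 11 were called higher, with a median of 0.61, while 3 of 29 lay above WT in del-cIDR, with a median of −0.29, and 0 were called there (limma, with 3 at an unadjusted p under 0.05). As deposited 0 were called in KO (limma, with 3 at an unadjusted p under 0.05), so the calls rest on the centring. The interval of highest signal, chr18:37863987-37864911, had 54.4 and 56.6 in WT, 104.0 and 67.3 in KO, with 52.8 and 49.97 in del-cIDR. Both KO libraries stood above the others, by 0.90 centred (limma adjusted p = 0.0025) and by 0.59 as deposited (limma adjusted p = 0.228). The other large runs, at chr9:108673122-108728788 with 15 intervals, chr19:8978902-8995536 with 12 and chr1:34216881-34240407 with 11, had 0 calls in KO and in del-cIDR against WT on either scale (limma). With libraries centred 2, 1 and 5 of their intervals had an unadjusted p under 0.05 in KO and 5, 0 and 0 in del-cIDR.

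**Figure D5:**
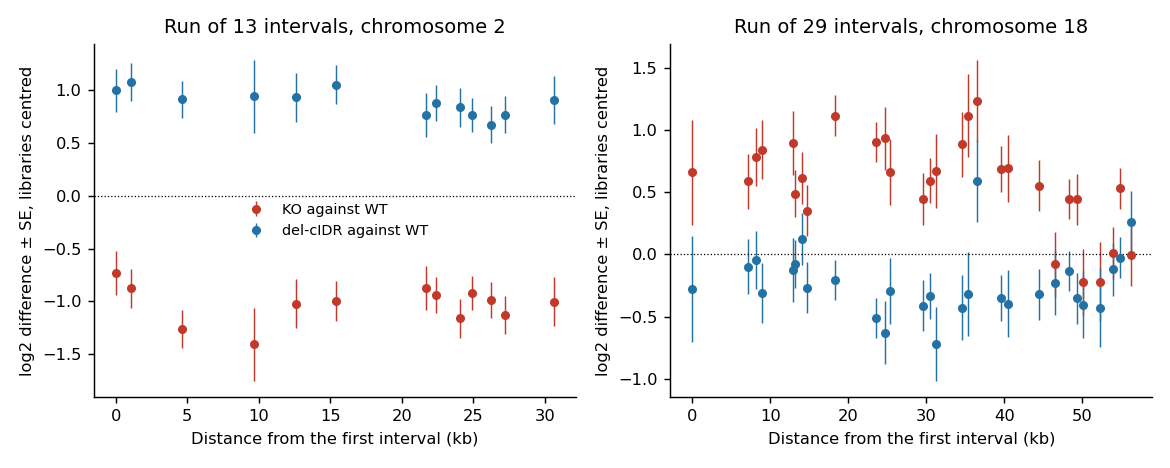
Centred log2 difference from WT with its SE for each interval of the run of 13 on chromosome 2 (left) and the run of 29 on chromosome 18 (right), against distance in kb from the first interval. On chromosome 2 all KO points lie below 0 and all del-cIDR points above it, and on chromosome 18 25 of 29 KO points lie above 0.

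Some smaller runs are described below that were chosen after their values were seen, for intervals called alike, so their agreement is no support for the pattern above. In the 4 intervals of chr14:118471753-118474070 the summed signal was 41.4 and 65.0 in WT, 8.21 and 7.88 in KO, with 130.5 and 108.8 in del-cIDR, and all 4 were called lower in KO, by −1.98 to −2.61 centred. In the 5 intervals of chr4:123364993-123370009, which have high signal, the sums were 3241 and 2853 in WT, 1351 and 996.3 in KO, with 4520 and 5192 in del-cIDR, and all 5 were called lower in KO. In the other direction, the 3 intervals of chr18:38722030-38723834 summed to 15.2 and 17.5 in WT, 71.2 and 50.3 in KO, with 14.9 and 17.5 in del-cIDR, and all 3 were called higher in KO. In the run of 4 at chr2:27649259-27656458 all 4 were called higher in KO. The end interval, chr2:27656206-27656458, had 5 reads in both WT libraries together, 707 in KO and 1 in del-cIDR, and like chr2:27649259-27649462 it reached the bound on mean signal only through KO, so that its difference was in part fixed by the rule. Its neighbour chr2:27651168-27651368 had a signal of 7.33 and 7.89 in WT, 26.8 and 17.8 in KO, with 12.4 and 16.9 in del-cIDR. All KO libraries there were above all others.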

How the data were processed

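RNA of 12 samples was sequenced, and the authors deposited 2 tables with 6 columns each, for intervals and for repeat loci on GRCm39. The deposited signal is whole reads (within 1e-06) times 1 factor per library, set by the m6A spike-in. Tools named in the submitters' processing notes, without versions or roles, are HISAT2, featureCounts, MACS2, fastp, bedtools, Picard and SAMtools. Whether replicates were pooled to define intervals, and whether starts count from 0 or 1, is not given in the sources used here. Members were found with bedtools 2.31.1, Python 3.11.15 and pandas 2.3.3. The members and lists were chosen with earlier results of these data known. Values were transformed as log2(signal + 0.5), and limma 3.58.1 in R 4.3.3 was fitted over all 37759 intervals with a mean of at least 1. The fit had 1 mean per group, a trend in the prior variance and Benjamini-Hochberg adjustment at 0.05. It was also run on simulated data with 1 dispersion for all intervals and no shift common to a library. That run cannot show how the fit does on these libraries, which differ by such shifts. Folds on this scale understate changes of low intervals. Named intervals were the 10 of largest difference per direction among called ones whose libraries did not overlap, the 10 of highest signal and of highest signal per kb, and the 5 largest runs. The text gives a selection. No fold is given at 3 reads or fewer per group. Intervals carry no gene names, and genes, exons and sequences were not analysed here, since the reference tables at hand are of another build. Alternatives were other scales, pseudocounts, minimums, a replicate block and leaving out each library. Figures used matplotlib 3.10.9.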

Additional observations from a re-analysis of the deposited data

How the results depend on the processing

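Counts of called short repeat-free intervals moved with the choice of scale, minimum and libraries. For KO against WT (1874 calls), 0 were called with no minimum on signal (limma, 3509 at an unadjusted p under 0.05), 4 scaled by the unmodified spike-in, 1176 with only the libraries of both groups and 265 to 5912 leaving out each library, with 492 to 2236 when centred. For del-cIDR against WT (192), 351 were called with a pseudocount of 2, 0 with no minimum (limma, 4579 at an unadjusted p under 0.05), 27 centred, 40 scaled by reads in repeats, 13 by ERCC reads, 0 by the unmodified spike-in (limma, 124 at an unadjusted p under 0.05), 121 among intervals below 500 bp, 6227 with only the libraries of both groups and 3 to 6213 leaving out each library, with 8 to 36 when centred. For del-cIDR against KO (9703), 2853 were called with no minimum, 4494 centred, 5069 scaled by reads in repeats, 3198 by ERCC reads, 27 by the unmodified spike-in and 4566 to 10883 leaving out each library, with 1912 to 4676 when centred. The members' median difference of −0.44 in KO was −0.12 centred, −0.14 scaled by reads in repeats, −0.057 by ERCC reads, −0.24 by the unmodified spike-in and −0.70 to −0.17 leaving out each library, at the lower end without KO replicate 1 and at the upper without KO replicate 2. That of 0.60 in del-cIDR against WT was 0.20, 0.21 and −0.036 on those scales, −0.55 by the unmodified spike-in and 0.53 to 0.65 leaving out each library. That of 1.02 in del-cIDR against KO was 0.30, 0.34, 0.0079 and −0.31, and 0.75 to 1.28 leaving out each library. Differences in the share of reads became 0.072, 1.12 and 1.05 points on the same autosomes, and the share of intervals in runs was 30.7% at a gap of 2 kb and 82.4% at 50 kb. With replicate number as a block 1019, 18 and 8115 were called. Deviations of same-numbered libraries correlated at 0.076 (KO with WT), −0.29 (del-cIDR with WT) and −0.15 (del-cIDR with KO), so the numbers were not taken as pairs. Of the 20 intervals of largest difference in KO against WT, 20 kept their call centred, on the ERCC scale and with the block, and 4 on that of the unmodified spike-in. With no minimum on signal 0 of the 20 kept it, and chr13:25386008-25386409 then had an adjusted p of 0.122 (limma). The 20 include chr2:27656206-27656458, chr2:27649259-27649462, chr3:129012244-129012663 and chr4:76004298-76004855, which reached the bound on mean signal only through KO. Their differences were in part fixed by the rule, so their kept calls are no support. Of the 14 in del-cIDR against WT, 4 kept their call centred, 3 on the ERCC scale and 8 with the block. Of these 14, 0 kept it with no minimum and 0 by the unmodified spike-in. Of the 20 in del-cIDR against KO, 16 kept it with no minimum and 12 by the unmodified spike-in. Some intervals of these lists also reached the bound only through a single group. Examples are chr2:179537535-179538049 through del-cIDR and chr2:56679681-56680010 through KO. Leaving out libraries on the centred scale, the other denominators of the share and the classes of mean signal on other scales were chosen after seeing the data. For each count and median, 2 planned count-based fits on recovered reads were not run.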

Other observations

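Short repeat-free intervals can lie beside a repeat without touching it, and they were sorted by the nearest repeat within 1000 bp. Beside ERVL, a family of endogenous retroviruses to which MERVL belongs, lay 168 intervals, of which 7 (4.17%) were called higher in KO and 10 (5.95%) lower with libraries centred (limma), against 2.53% and 9.52% of all the members. Their median centred difference from WT was −0.045, against −0.12 over all the members. Beside ERVK lay 498 intervals, of which 8 (1.61%) were called higher and 57 (11.4%) lower in KO. Beside LINE-1 lay 902, with 30 (3.33%) higher and 76 (8.43%) lower. Differences between these classes were not tested.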
